A study of Homo sapiens with 10 samples.

Results

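The untreated cells of the neuroblastoma lines SK-N-AS and SK-N-FI were compared with each other, over 3 SK-N-AS and 2 SK-N-FI arrays, which make up 5 of the 10 arrays in the series. The arrays were chosen by their titles and group labels alone, without reference to their values. The series as a whole examined BG-P1600-TAT, a PEGylated compound whose stated targets are the norepinephrine transporter and integrin αvβ3. Its other 5 arrays come from cells given that compound at 30 µM for 48 h (3 SK-N-AS and 2 SK-N-FI), although the titles of the treated SK-N-AS arrays call it BG-P-TAT. The untreated groups received phosphate-buffered saline (PBS) for the same 48 h, and both lines were grown in serum-containing IMDM medium. The labels name no genetic change in either line. SK-N-FI came from ATCC and SK-N-AS was a gift from the Children's Oncology Group, per the labels' protocols. The labels call the SK-N-AS cells a primary line, although the name is that of an established one, and 1 label field spells the name of the other line SKNF1. For the SK-N-FI controls the series text speaks of 3 biological replicates, and 2 arrays were analysed here. Whether the SK-N-AS arrays stem from separate cultures is not stated, and p-values may then measure only the spread between these arrays, which may be technical. With 3 and 2 arrays, precision is low.

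Neuroblastoma arises from the sympathoadrenal lineage of the neural crest. Its cells range between a noradrenergic state, held by transcription factors such as HAND2 and GATA3 and marked by catecholamine synthesis, and a mesenchymal state that resembles neural crest precursors and is marked by AP-1 factors, matrix proteins and innate immune genes. Cell lines differ in where they lie between these states.

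The values are log2 signals per probe set, taken from the deposited table and quantile-normalized over all 10 arrays. On each array a gene was called on when it read above the 95th percentile of that array's 612 negative control probe sets, and off in a line when it did so on none of that line's untreated arrays. This limit lay at 6.89 and 6.73 on SK-N-FI arrays 1 and 2, and at 7.96, 7.58 and 7.28 on SK-N-AS arrays 25, 26 and 27. Because a gene below the limit has no measured level, its difference is given as a bound: "at least N-fold", from the mean of the line where it was on against the higher of the limit and its own signal on each array of the other line. Medians over gene lists include signals below the limit as they stand. Line and processing cannot be told apart in this design. As deposited, the median over gene probe sets was 6.66 and 6.67 on the SK-N-FI arrays and between 5.78 and 5.84 on the SK-N-AS arrays, so that the median log2 difference (SK-N-AS minus SK-N-FI here and throughout) over probe sets with a gene symbol was -0.65 on the deposited scale, 0.035 after quantile normalization and 0.21 after centring each array on its median. Over genes on in both lines the deposited scale lay 1.29 lower in SK-N-AS, against 0.18 higher after quantile normalization. A small or moderate difference can therefore change sign with the scale, and counts are given below also for genes called in the same direction on all 3 scales. Spiked-in hybridization controls had array medians of 10.44 and 10.57 in SK-N-FI and 11.33, 10.61 and 10.88 in SK-N-AS as deposited. After quantile normalization these were 9.46 and 9.56 against 11.87, 11.18 and 11.39, further apart. Positive control probe sets came closer, from 12.96 and 13.05 against 11.94, 11.8 and 11.9 to 12.23 and 12.28 against 12.43, 12.31 and 12.34. Within a line the untreated arrays correlated across probe sets at 0.974 to 0.993, and between lines at 0.851 to 0.880. SK-N-AS array 25 stood somewhat apart. Of 7610 genes on in at least 1 SK-N-AS array, 579 (7.61%) lay 1 log2 unit or more below both other arrays on array 25, against 34 on array 26 and 7 on array 27.

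The lines differed over a large share of the genome. Of 20893 gene probe sets, 9783 (46.8%) passed an adjusted p of 0.05 in limma, 5042 (24.1% of all tested) higher in SK-N-AS and 4741 (22.7%) in the other direction. On the deposited scale 2443 were higher in SK-N-AS against 9960 in SK-N-FI, and after median centring 7459 against 5763. Of the 17705 probe sets with a gene symbol, 8495 (48.0%) passed, with 4377 (24.7%) higher in SK-N-AS against 4118 (23.3%) in SK-N-FI. The same direction was called on all 3 scales for 30.3% of all gene probe sets and for 31.4% of the named ones, namely 2086 (11.8%) toward SK-N-AS and 3468 (19.6%) toward SK-N-FI. The arrays of the lines did not overlap for 66.5% of all and 67.5% of named probe sets. A stricter count, requiring at least a 2-fold difference and a signal above background on every array of the higher line, held 4205 named probe sets (23.8%), of which 1818 (10.3%) were higher in SK-N-AS, with the other 2387 (13.5%) higher in SK-N-FI. Over all gene probe sets the shares were 9.88% and 12.6%. Differences of 16-fold or more were found for 227 probe sets in SK-N-AS and 264 in SK-N-FI, and of 32-fold or more for 127 and 128. Taken as on or off, 5404 named probe sets were on in both lines, 8503 off in both, 435 on in SK-N-AS and off in SK-N-FI, and 1298 the reverse. After quantile normalization the background limits were higher on the SK-N-AS arrays. As deposited they were lower there, at 7.23, 7.03 and 6.75 against 7.61 and 7.44, and the counts were 433 and 1300. On both scales a gene had to be on in 3 SK-N-AS arrays against 2 SK-N-FI arrays. The 435 and the 1298 were therefore not counted on equal terms. A further 1247 were on in SK-N-FI and above background on only some SK-N-AS arrays. All of the 435 and 1067 of the 1298 passed the test. Of the 435, 234 had a bound of 4-fold or more and 71 of 16-fold or more. For the 1298 the bounds were mostly smaller, with 146 at 4-fold or more and 38 at 16-fold or more. The plot of line means shows this spread around the diagonal.

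**Figure D1:**
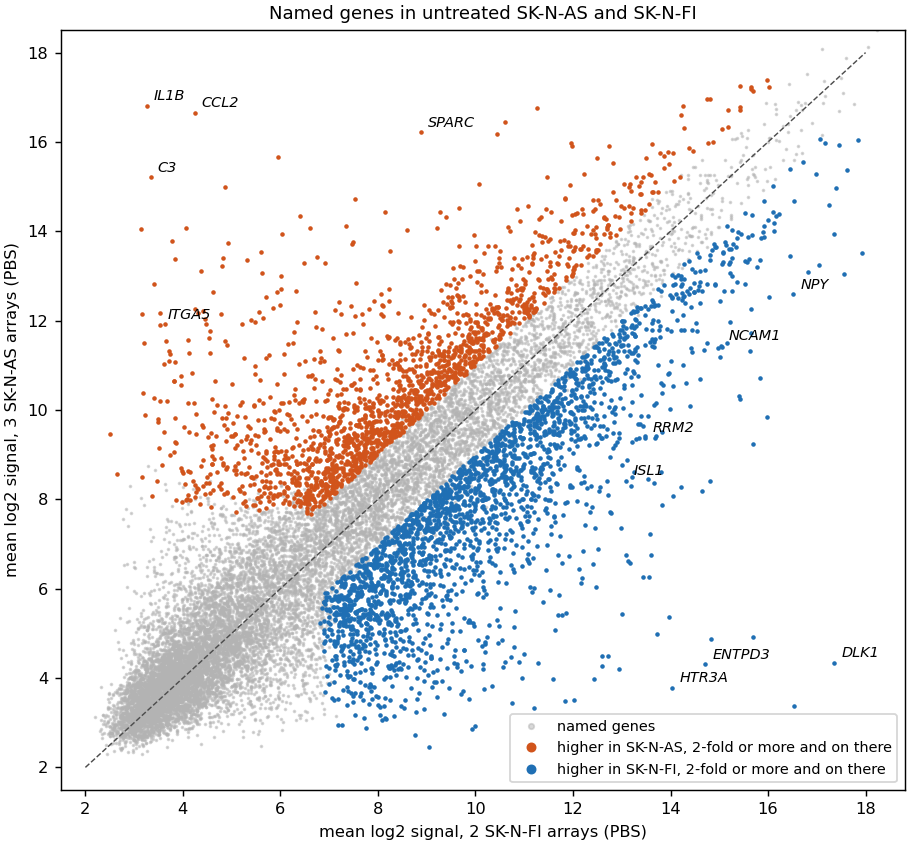
Mean log2 signal of each named gene over the 3 untreated SK-N-AS arrays (vertical) against the 2 untreated SK-N-FI arrays (horizontal), after quantile normalization, with the line of equality dashed. Genes called at 2-fold or more and on in the higher line are coloured. IL1B and CCL2 lie near the top of the SK-N-AS range while near the floor in SK-N-FI, and DLK1 does the reverse.

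The 15 genes ranked highest in SK-N-AS by normalized log2 difference included cytokines, complement genes and matrix proteins. The ranking used signals below background as they stood, so its order is not the order of the bounds. IL1B, the cytokine interleukin 1 beta, read 2.98 and 3.53 on the SK-N-FI arrays and 16.64, 16.86 and 16.95 on the SK-N-AS arrays. The monocyte chemokine CCL2 read 4.49 and 3.98 against 16.43, 16.72 and 16.80. Complement component C3 read 3.33 and 3.34 against 15.12, 15.31 and 15.19. All 3 were off in SK-N-FI and among the brightest signals in SK-N-AS, with bounds of at least 1027-fold, 917-fold and 337-fold (735-fold, 635-fold and 195-fold on the deposited scale) and adjusted p of 1.81e-11 in limma for each. The other genes among these 15 were the chemokines CCL20 and CXCL8, the complement genes C7, CFB and C1S, TNFRSF9 (the costimulatory receptor 4-1BB), AKR1C1 (a steroid and aldehyde reductase), the matrix proteins MFAP4 and THBS2, the stress cytokine GDF15, the tryptophan-degrading enzyme TDO2 and IGFBP3, a carrier of insulin-like growth factors. All 15 were off in SK-N-FI and on in SK-N-AS, with bounds from 40.4-fold to 1027-fold. Genes outside the 15 can exceed the lower of these bounds, as NT5E did (at least 72.6-fold), and so can genes measured in both lines, as SPARC did (162-fold).

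The 15 genes ranked highest in SK-N-FI by the same rule held several genes of neurons. DLK1, a non-canonical Notch ligand of the sympathoadrenal lineage and a surface antigen of neuroblastoma, read 17.36 on both SK-N-FI arrays and 4.69, 4.36 and 3.99 on the SK-N-AS arrays, at least 864-fold higher (931-fold on the deposited scale). ENTPD3, an ectonucleotidase of sensory neurons, read 15.09 and 14.34 against 4.07 to 4.5, a bound of 138-fold. HTR3A and HTR3B, the subunits of the serotonin-gated ion channel, were both in this group. HTR3A read 14.32 and 13.75 against 3.83, 3.98 and 3.55, at least 86.0-fold, and HTR3B read 12.15 and 11.90 against 3.48, 3.39 and 3.67, at least 21.4-fold. Both groups of 15 were drawn from genes that passed the test, did not overlap between the lines and were on in the higher line. The lines did not overlap for 67.5% of all named probe sets. The remaining 11 of these 15 were LPCAT2 (a lysophospholipid acyltransferase), PCP4 (a calmodulin-binding protein of neurons), SYN2 (a synaptic vesicle phosphoprotein), MGAT4C (a glycosyltransferase), NTRK3 (the neurotrophin 3 receptor), STOM (a membrane scaffold protein), NSG2 (a neuronal endosomal protein), QPCT (glutaminyl cyclase), GFRA2 (the neurturin co-receptor), GAP43 (a growth cone protein) and ADAD1. All 15 were off in SK-N-AS, with bounds from 8.83-fold to 864-fold and adjusted p of at most 1.95e-08 in limma. DBH (at least 63.5-fold) and SLC6A2 (at least 56.5-fold), outside the 15, exceed the lower of these bounds.

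Promoters are shown as examples for those of the 30 genes above whose 250 bases upstream of the RefSeq start (GRCh38.p14) held the letters of an AP-1 or a homeodomain motif, since factors of both kinds differed between the lines. Of the 15 genes highest in SK-N-AS, 11 had a promoter in the table used and 2 of them held TGACTCA, the AP-1 letters, on either strand. GGAATG, the letters of TEAD factors, was in 3 of the 11 (CCL20, GDF15 and THBS2, not printed). Of the 15 highest in SK-N-FI, 9 had a promoter, of which 1 held TAATTA, the core letters of many homeodomain factors, and 0 held the AP-1 or TEAD letters. The TNFRSF9 window is chr1:7940840-7941089 on the minus strand, with the match starting 44 bases upstream of the start. The CXCL8 window is chr4:73740319-73740568 on the plus strand, with the match at 137 bases. The MGAT4C window is chr12:86256392-86256641 on the minus strand, with the match at 228 bases. The sequences run 5′ to 3′ along the gene's strand, and the capitals mark the match.
TNFRSF9: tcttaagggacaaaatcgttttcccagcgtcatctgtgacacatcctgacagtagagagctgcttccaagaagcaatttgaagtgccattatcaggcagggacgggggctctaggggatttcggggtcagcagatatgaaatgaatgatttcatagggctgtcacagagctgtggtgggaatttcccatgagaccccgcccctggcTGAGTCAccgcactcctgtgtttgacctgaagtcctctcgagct
CXCL8: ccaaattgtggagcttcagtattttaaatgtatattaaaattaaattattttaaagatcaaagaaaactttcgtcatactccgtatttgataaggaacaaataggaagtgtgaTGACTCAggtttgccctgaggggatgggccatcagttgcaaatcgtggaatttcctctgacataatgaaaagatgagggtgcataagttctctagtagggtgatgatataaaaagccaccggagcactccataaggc
MGAT4C: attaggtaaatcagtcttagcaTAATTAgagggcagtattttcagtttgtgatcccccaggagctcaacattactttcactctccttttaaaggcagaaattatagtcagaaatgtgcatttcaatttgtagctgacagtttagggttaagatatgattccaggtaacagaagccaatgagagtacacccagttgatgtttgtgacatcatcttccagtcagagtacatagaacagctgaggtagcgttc

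Over whole groups the shares were as follows. Promoters were matched for 14250 of 17687 named genes. TGACTCA on either strand was present in 3.17% of all of them, in 2.58% of the 1472 genes at least 2-fold higher and on in SK-N-AS, and in 1.5% of the 2001 such genes in SK-N-FI. Among genes 16-fold or more higher the shares were 5.45% of 165 in SK-N-AS (9 promoters) and 3% of 200 in SK-N-FI (6 promoters). GGAATG, the TEAD letters, was in 10.0% of all promoters, 8.70% of those higher in SK-N-AS and 8.15% of those higher in SK-N-FI. CACGTG, an E-box bound by MYC family and other helix-loop-helix factors, was in 7.70%, 10.1% and 8.20%. TAATTA was in 3.13%, 1.70% and 2.10%. In the 16-fold groups of SK-N-AS and SK-N-FI, TEAD letters were in 8.48% and 9.5%. There the E-box was in 6.06% and 6.5%, and the homeodomain letters in 3.03% and 3.5%. Genes on in both lines and not called, 2071 with a promoter, held the letters in 2.22%, 8.55%, 9.95% and 1.74% for AP-1, TEAD, E-box and homeodomain letters. These shares are descriptions with no test, and the 4 motifs can overlap with others that were not searched.

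The noradrenergic transcription factors were read first among the gene lists. Of 18 measured, 12 were higher in SK-N-FI, against 2 in SK-N-AS, with a median log2 difference of -2.30 against 0.034 over all named genes, and on all 3 scales 12 were higher in SK-N-FI, against 0 in SK-N-AS. PHOX2A, a homeodomain factor of noradrenergic neurons, read 12.12 and 11.29 in SK-N-FI and 5.18, 5.28 and 5.74 in SK-N-AS, where it was off. LMO1, a co-regulator at neuroblastoma super-enhancers, read 13.28 and 12.88 against 6.99, 6.77 and 6.49. GATA2 read 13.40 and 12.56 against 7.60, 7.40 and 7.10. These 3 were off in SK-N-AS, at least 17.1-fold, 44.6-fold and 41.4-fold lower there. ISL1, a LIM homeodomain factor of sympathetic neurons, was on in both lines but read 12.95 and 13.23 against 8.47, 8.18 and 8.59, a log2 difference of -4.67 (SE 0.22).

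Not all of this circuit was low in SK-N-AS. HAND2, a helix-loop-helix factor of sympathetic precursors, read 10.69 and 11.41 in SK-N-FI and 11.06, 10.54 and 11.09 in SK-N-AS, and its arrays overlapped (log2 difference -0.15, SE 0.31). GATA3 read 9.24 and 9.16 against 8.67, 9.06 and 9.0 (log2 difference -0.29, SE 0.26). Neither passed the test after quantile normalization. Both passed as lower in SK-N-AS after median centring, at -0.81 and -1.14, and on the deposited scale, at -1.66 and -1.99, where genes on in both lines had a median of -1.29. The 2 members higher in SK-N-AS, named after their values were seen, were TBX2, a T-box factor (13.27 and 12.10 against 14.08, 13.99 and 14.08), and TLX2 (6.64 and 6.36 against 7.17, 7.59 and 7.0), and neither was so on the deposited scale. Without SK-N-FI array 2 the count of 2 was 0, and without SK-N-FI array 1 or SK-N-AS array 25 or 26 it was 1.

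**Figure D2:**
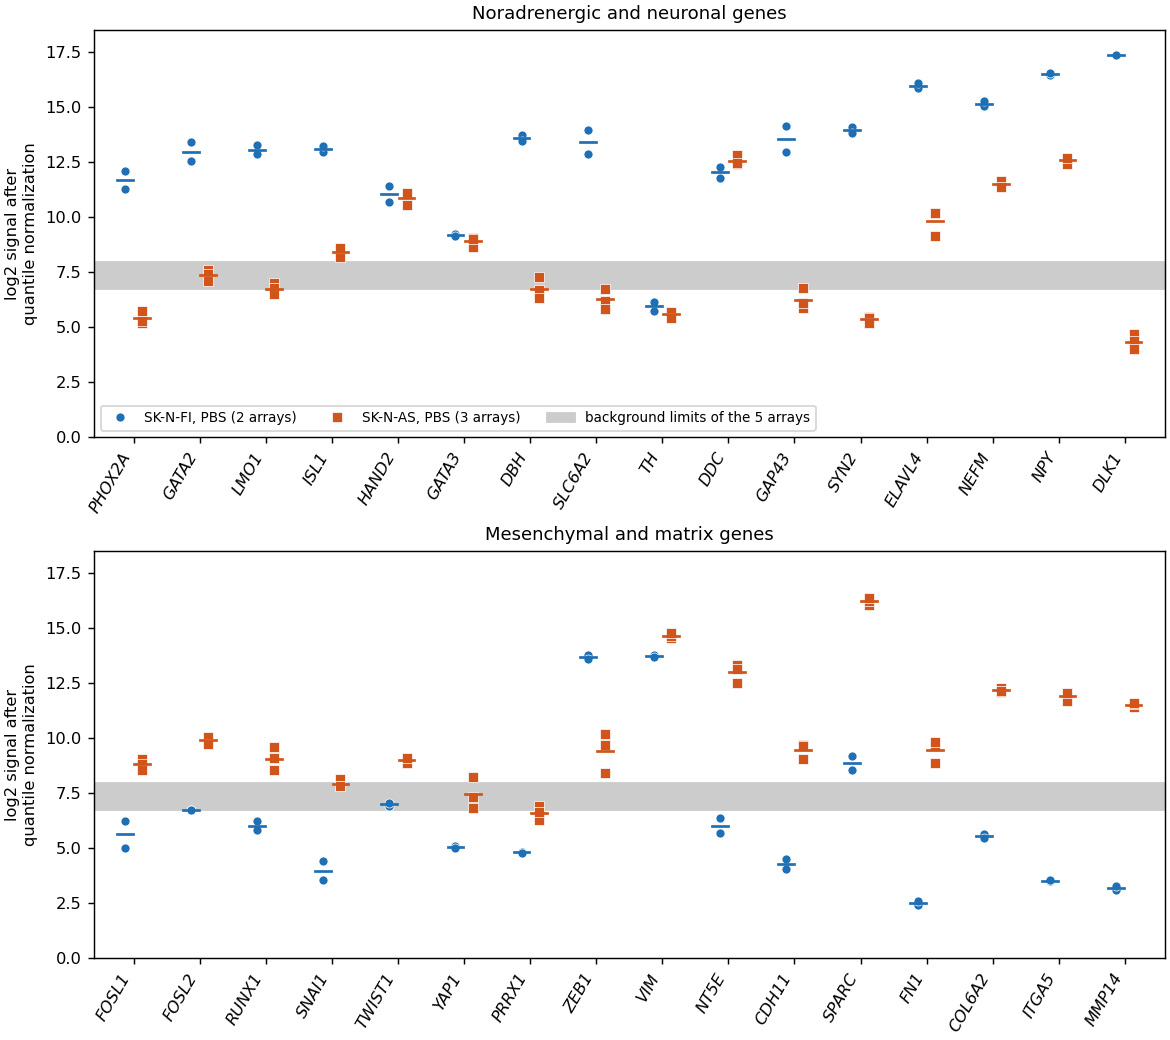
Log2 signal after quantile normalization of noradrenergic and neuronal genes (top) and mesenchymal and matrix genes (bottom) on each untreated array. Circles are the 2 SK-N-FI arrays, squares the 3 SK-N-AS arrays, bars their means, and the grey band the range of the background limits of the 5 arrays. PHOX2A, DBH, SLC6A2, GAP43 and DLK1 lie above the band only in SK-N-FI, HAND2 and GATA3 lie above it in both lines, and FN1, ITGA5, MMP14 and NT5E lie above it only in SK-N-AS.

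The catecholamine genes also leaned to SK-N-FI. Of 14 measured, 9 were higher in SK-N-FI, against 0 in SK-N-AS (8 and 0 on all 3 scales), with a median of -0.97. DBH, which makes noradrenaline from dopamine, read 13.73 and 13.46 in SK-N-FI and 7.28, 6.68 and 6.31 in SK-N-AS. SLC6A2, the norepinephrine transporter and a stated target of the compound in this series, read 13.96 and 12.89 against 6.75, 6.21 and 5.84. Both were on in every SK-N-FI array and off in every SK-N-AS array, with bounds of at least 63.5-fold and 56.5-fold (141-fold and 126-fold on the deposited scale). The vesicular monoamine transporter SLC18A1 was off in SK-N-AS too, at least 2.27-fold lower, and CYB561, the ascorbate carrier of secretory granules, differed by -3.56. TH, the rate-limiting enzyme of catecholamine synthesis, was off in both lines, at 5.76 and 6.16 against 5.70, 5.68 and 5.44. DDC, which follows it in the pathway and was named after its values were seen, did not pass the test at 12.27 and 11.80 against 12.83, 12.42 and 12.48. Of the noradrenergic markers, DBH, SLC6A2 and 16 of the 18 transcription factors were thus on in SK-N-FI, and TH was not.

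Neuronal structural genes had the lowest median of the 48 lists after quantile normalization. Of 20 cytoskeletal and growth cone genes, 14 were higher in SK-N-FI (13 on all 3 scales) and 2 in SK-N-AS, with a median of -3.35. GAP43 read 12.97 and 14.16 in SK-N-FI and 5.87, 6.10 and 6.79 in SK-N-AS, where it was off, at least 62.2-fold lower. CRMP1, a mediator of semaphorin signalling, differed by -5.04 (SK-N-FI 12.72 and 12.78), STMN4, a microtubule destabiliser, was off in SK-N-AS and at least 4.02-fold lower, and the neurofilament NEFL differed by -4.63. Among 21 synaptic vesicle genes, 14 were higher in SK-N-FI, all 14 on all 3 scales, and 2 in SK-N-AS. SYN2 read 14.08 and 13.84 against 5.48, 5.41 and 5.18, at least 81.7-fold higher in SK-N-FI. SV2C and RIMS2, a vesicle glycoprotein and an active zone protein, were off in SK-N-AS, and SYT11 differed by -2.79. Both lists leaned to SK-N-FI, and without SK-N-FI array 1 each held 1 gene higher in SK-N-AS.

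Granins and neuropeptides were divided between the lines. Of 19 measured, 7 were higher in SK-N-FI, against 5 in SK-N-AS, and their median of -0.18 was 0.44 after median centring. Neuropeptide Y (NPY) read 16.47 and 16.54 in SK-N-FI and 12.65, 12.44 and 12.69 in SK-N-AS, and galanin (GAL) read 15.23 and 15.64 against 10.53, 9.99 and 10.20. Both were on in both lines. CPE, the carboxypeptidase that matures peptide hormones, ran the other way, off in SK-N-FI at 4.91 and 5.32 and on in SK-N-AS at 9.79, 9.87 and 9.95, at least 8.31-fold higher. SK-N-AS thus kept a signal for some secretory genes, at levels below those of SK-N-FI for NPY and GAL.

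Of 26 mesenchymal transcription factors, 14 were higher in SK-N-AS, against 3 in SK-N-FI (11 and 3 on all 3 scales), with a median of 1.29. On the deposited scale the counts were 11 and 10 and the median 0.41, and without SK-N-AS array 26 the 3 were 5. FOSL1, an AP-1 subunit of mesenchymal cells, read 6.25 and 5.01 in SK-N-FI and 9.06, 8.81 and 8.55 in SK-N-AS. FOSL2 read 6.75 and 6.72 against 9.95, 10.07 and 9.74, and SNAI1, a repressor of epithelial genes, 3.53 and 4.43 against 8.14, 7.83 and 7.83. All 3 were off in SK-N-FI and on in SK-N-AS, with bounds of 3.99-fold, 8.62-fold and 2.18-fold, of which that of SNAI1 was not above 1 on the deposited scale. TWIST1 read 6.93 and 7.05 against 9.02, 8.89 and 9.10, and its difference of 2.01 became 0.57 and did not pass on the deposited scale. PRRX1, a homeobox factor that can impose the mesenchymal state, was off in both lines at 4.82 and 4.79 against 6.30, 6.90 and 6.64, although this difference between dim signals passed the test. ZEB1 ran against the list, at 13.80 and 13.61 in SK-N-FI and 8.40, 10.18 and 9.70 in SK-N-AS, a difference of -4.28 (SE 0.60, adjusted p of 0.00012 in limma), and was named after its values were seen.

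AP-1 factors as a family were mixed. Of 11 measured, 6 were higher in SK-N-AS, against 3 in SK-N-FI (3 and 3 on all 3 scales). JUND read 8.17 and 8.33 in SK-N-FI and 5.15, 4.97 and 4.98 in SK-N-AS, where it was off. JUNB was off in SK-N-FI at 6.42 and 6.60 and read 8.60, 8.23 and 8.28 in SK-N-AS, at least 2.95-fold higher, but it did not pass on the deposited scale (at least 1.15-fold). Of 14 YAP and TEAD pathway genes, 5 were higher in SK-N-AS, against 4 in SK-N-FI, and 9 of the 14 were off in both lines. All named probe sets gave 24.7% higher in SK-N-AS and 23.3% in SK-N-FI. TEAD2, a DNA-binding partner of YAP, was off in SK-N-FI at 5.03 and 5.02 and read 10.46, 9.09 and 9.59 in SK-N-AS, at least 7.48-fold higher. YAP1 itself read 5.11 and 4.99 against 7.34, 8.23 and 6.81 and was above background on 1 of the 3 SK-N-AS arrays. ANKRD1 and CCN2, common YAP target genes, were off in SK-N-AS. ANKRD1 was above background on 1 of the 2 SK-N-FI arrays, and CCN2 on neither. Without SK-N-FI array 1, and likewise without array 2, the counts of the list were 3 and 2.

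Matrix genes leaned to SK-N-AS. Of 23 measured, 11 were higher in SK-N-AS on the quantile-normalized scale and the same number on all 3 scales, and 5 were higher in SK-N-FI (3 on all 3 scales, 2 without SK-N-FI array 1 and 3 without array 2). SPARC, a collagen-binding matricellular protein, read 9.18 and 8.57 in SK-N-FI and 16.07, 16.22 and 16.36 in SK-N-AS, a log2 difference of 7.34 (SE 0.23). Fibronectin (FN1) was off in SK-N-FI at 2.42 and 2.60 and read 8.86, 9.70 and 9.81 in SK-N-AS. COL6A2 was off at 5.64 and 5.47 and read 12.30, 12.11 and 12.15, at least 41.6-fold higher, and tenascin C (TNC) was at least 3.24-fold higher. Proteases were higher in SK-N-AS for 8 of 13 and in SK-N-FI for 2 (1 without SK-N-FI array 2). MMP14, a membrane-bound collagenase, read 3.11 and 3.29 against 11.40, 11.53 and 11.58 (at least 25.9-fold), MMP1 read 6.95 and 6.71 against 11.30, 11.16 and 11.01, and ADAMTS1 was off in SK-N-AS and at least 3.06-fold lower.

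Mesenchymal effectors depended on the scale. Of 24 cytoskeletal and surface genes, 13 were higher in SK-N-AS after quantile normalization, and 6 in SK-N-FI. On the deposited scale these counts were 10 and 11, and the median moved from 0.79 to -0.20. On all 3 scales 10 were higher in SK-N-AS, against 4 in SK-N-FI. NT5E, the surface enzyme CD73, was off in SK-N-FI at 5.67 and 6.35 and read 12.52, 13.32 and 13.14 in SK-N-AS, at least 72.6-fold higher. CDH11 was off in SK-N-FI and at least 6.30-fold higher, and galectin 1 (LGALS1) read 11.63 and 12.27 against 16.11, 15.95 and 15.84. Vimentin (VIM), the intermediate filament most used to mark mesenchymal cells, separated the lines little, at 13.78 and 13.70 against 14.54, 14.63 and 14.76, a difference of 0.90 that was 0.20 and not called on the deposited scale.

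Among the integrins, receptors for matrix, the count called was near the 48.0% of all named probe sets. Of 25 measured, 8 were higher in SK-N-AS, against 5 in SK-N-FI, and 15 were off in both lines. Without SK-N-FI array 1 the 5 were 3. ITGA5, the fibronectin receptor subunit, was off in SK-N-FI at 3.49 and 3.56 and read 11.97, 11.70 and 12.07 in SK-N-AS, at least 34.4-fold higher. ITGA3, a laminin receptor subunit, was at least 9.76-fold higher and ITGB5, a partner of the αv subunit, at least 2.81-fold higher, both off in SK-N-FI. ITGA6, another laminin receptor subunit, read 13.93 and 14.19 in SK-N-FI and 8.04, 8.28 and 7.91 in SK-N-AS, a difference of -5.99 (SE 0.24). The subunits of αvβ3, the other stated target of the compound, were less clear. ITGAV was on in both lines, at 8.82 and 8.67 against 8.79, 10.73 and 10.23, with overlapping arrays and no call (difference 1.17, SE 0.63, adjusted p of 0.15 in limma), and the difference was -0.50 on the deposited scale. Without array 25 the difference was 1.73 and passed. ITGB3 was off in both lines, at 6.04 on both SK-N-FI arrays and 5.37, 5.07 and 6.34 in SK-N-AS.

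The inflammatory difference extended beyond the largest genes. Of 12 NF-kB subunits and inhibitors, 8 were higher in SK-N-AS, against 1 in SK-N-FI (7 and 1 on all 3 scales), with a median of 2.54, the highest of the 48 lists on this scale, and 1.25 on the deposited scale. NFKBIA, the inhibitor IκBα and itself a target of NF-kB, read 7.44 and 7.60 in SK-N-FI and 14.91, 14.52 and 14.77 in SK-N-AS, a difference of 7.21 (SE 0.23). TNFAIP3, a ubiquitin-editing inhibitor, was off at 4.14 and 3.77 and read 10.65, 10.83 and 10.80. NFKB2, the p100 subunit, was off at 6.53 and 6.09 and read 13.01, 12.46 and 12.51, at least 57.7-fold higher, and NFKB1 differed by 4.87. NFKBIA, TNFAIP3, NFKB2 and NFKB1, the members with the smallest p, were thus all higher in SK-N-AS, while 3 of the 12 were not called. The activity of NF-kB was not tested. Of 22 chemokines and cytokines, 12 were higher in SK-N-AS, against 1 in SK-N-FI (10 and 1 on all 3 scales), with 11 off in both lines. After IL1B, CCL2, CCL20 and CXCL8, the differentiation cytokine LIF was off in SK-N-FI at 3.93 and 4.43 and read 10.75, 10.66 and 11.07, at least 16.2-fold higher. IL6, named after its values were seen, was off in both lines.

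Antigen presentation genes also leaned to SK-N-AS. Of 15 HLA class I presentation genes, 12 were higher in SK-N-AS, against 1 in SK-N-FI (11 and 1 on all 3 scales), with a median of 2.08. TAPBP, which loads peptide onto class I molecules, read 7.51 and 7.16 in SK-N-FI and 11.59, 11.73 and 11.76 in SK-N-AS. The immunoproteasome subunits PSMB8 and PSMB9 differed by 2.81 and 4.11. ERAP2, a peptide-trimming enzyme, was the exception, at 6.94 and 6.96 in SK-N-FI and 4.27, 3.83 and 4.0 in SK-N-AS, where it was off. HLA genes are alike in sequence, so their probe sets may share signal. Interferon-stimulated genes were less uniform, with 9 of 21 higher in SK-N-AS, against 3 in SK-N-FI (6 and 3 on all 3 scales). Over all named probe sets the shares were 24.7% and 23.3%. IFITM3, an antiviral membrane protein, read 7.78 and 6.90 against 14.16, 14.10 and 14.10, and IFITM2 and BST2 were off in SK-N-FI and at least 8.15-fold and 3.36-fold higher. MX2, an interferon-induced GTPase, ran against them, at 10.26 and 10.05 in SK-N-FI and 3.93, 4.17 and 4.53 in SK-N-AS, at least 5.84-fold lower.

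**Figure D3:**
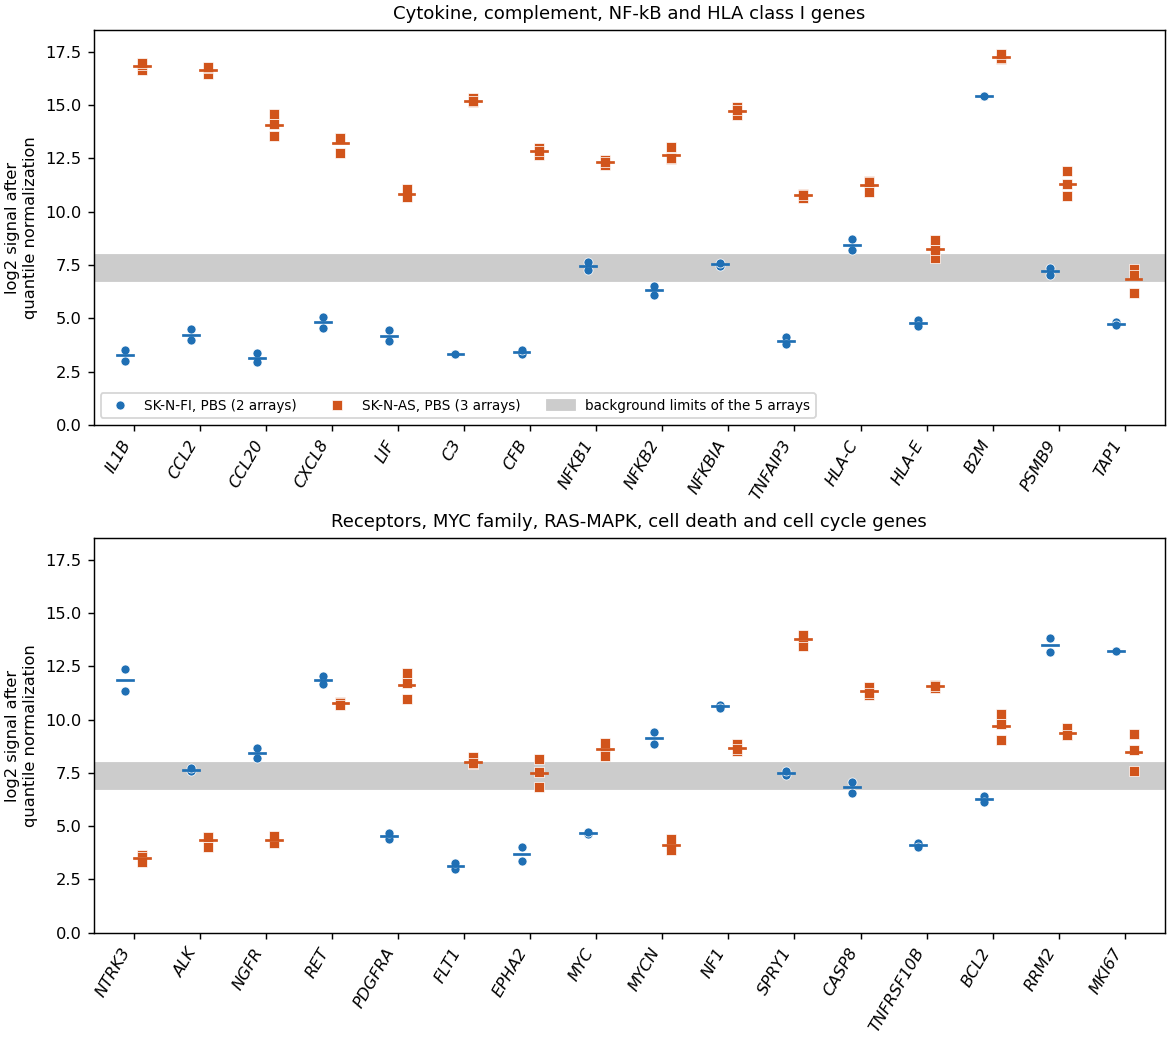
Log2 signal after quantile normalization on each untreated array for inflammatory and HLA genes (top) and for receptors, MYC family, RAS-MAPK, cell death and cell cycle genes (bottom), with symbols, bars and grey band as in the plot of identity genes. IL1B, CCL2, CCL20, CXCL8 and C3 lie far below the band in SK-N-FI and far above it in SK-N-AS, and MYC and MYCN lie above it in opposite lines.

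Single growth factor receptors differed widely. Among 28 receptor tyrosine kinases, 7 were higher in SK-N-AS, against 10 in SK-N-FI (4 and 8 on all 3 scales), where all named probe sets gave 24.7% and 23.3%. As many as 13 were off in both lines. NTRK3 read 12.36 and 11.33 in SK-N-FI and 3.63, 3.55 and 3.31 in SK-N-AS, at least 18.9-fold higher in SK-N-FI. NGFR, the low-affinity neurotrophin receptor kept with this list, was off in SK-N-AS and at least 1.77-fold lower. PDGFRA, a receptor of mesenchymal cells, was off in SK-N-FI at 4.39 and 4.66 and read 10.95, 12.18 and 11.69 in SK-N-AS, at least 27.8-fold higher. FLT1 read 3.0 and 3.26 against 7.92, 8.22 and 7.95 and lay above background on 2 of the 3 SK-N-AS arrays. NTRK3 and NGFR were thus on in SK-N-FI alone, and PDGFRA in SK-N-AS alone. Of 20 growth factors, 7 were higher in SK-N-AS, against 4 in SK-N-FI (3 and 2 on all 3 scales, and the median of 0.27 was -0.25 on the deposited scale). The 7 were 4 without SK-N-FI array 1 or SK-N-AS array 27, and the 4 were 2 without SK-N-FI array 2. HGF, the ligand of MET, read 10.16 and 11.05 against 15.74, 16.94 and 16.62, VEGFA and VEGFB differed by 2.31 and 3.12, and midkine (MDK) differed by -3.24. The IGF-binding proteins IGFBP7 and IGFBP2 were higher in SK-N-AS beside IGFBP3, IGFBP7 at least 8.79-fold and IGFBP2 by 3.09 on the log2 scale.

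RAS-MAPK genes had no common direction, with 7 of 18 higher in each line (3 in SK-N-AS and 7 in SK-N-FI on all 3 scales), and their median of 0.31 was -1.35 on the deposited and -0.49 on the centred scale. SPRY1, a feedback inhibitor, read 7.42 and 7.57 in SK-N-FI and 13.46, 13.85 and 13.98 in SK-N-AS. EGR1, an immediate early target of the pathway, read 10.23 and 10.33 against 6.45, 6.65 and 6.73 and was off in SK-N-AS. IER3 differed by 2.56 and DUSP4, a nuclear ERK phosphatase, by -2.28, so that feedback and target genes of the pathway were found on both sides. NF1, a RAS GTPase-activating protein, read 10.69 and 10.55 against 8.52, 8.85 and 8.64, a difference of -1.95 (SE 0.26). NRAS was not analysed here.

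MYC and MYCN stood in opposite lines. MYC was off in SK-N-FI at 4.65 and 4.74 and read 8.64, 8.31 and 8.91 in SK-N-AS, at least 3.51-fold higher (1.35-fold on the deposited scale). MYCN, the paralogue of neural precursors, read 8.85 and 9.41 in SK-N-FI and 4.10, 3.90 and 4.42 in SK-N-AS, where it was off and at least 2.88-fold lower. Of 15 Notch genes, 3 were higher in SK-N-AS and 5 in the other line (2 and 4 on all 3 scales), and the 5 were 2 without SK-N-FI array 1 and 3 without array 2. The 3 were 5 without SK-N-AS array 27. HES1, a Notch target, was off in SK-N-FI and at least 5.76-fold higher in SK-N-AS, whereas HEY1, another Notch target, differed by -3.14. Of 26 WNT genes, 8 were higher in SK-N-AS and 7 in the other line (5 and 7 on all 3 scales). Beside the Notch and WNT counts, the shares over all named probe sets were 24.7% higher in SK-N-AS and 23.3% in SK-N-FI. LGR5, a receptor for R-spondins, was off in SK-N-FI at 5.65 and 6.34 and read 11.53, 12.89 and 12.60 in SK-N-AS, and SFRP1, a WNT antagonist, was at least 6.49-fold higher.

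Genes of DNA synthesis and cell division were lower in SK-N-AS. Of 19 replication genes, 17 were higher in SK-N-FI, against 1 in SK-N-AS (17 and 0 on all 3 scales), and of 20 mitosis genes, 18 were higher in SK-N-FI, against 0 in SK-N-AS (18 and 0 on all 3 scales, and 20 and 0 on the deposited scale), with medians of -1.46 and -2.98. RRM2, a subunit of ribonucleotide reductase, read 13.82 and 13.15 in SK-N-FI and 9.29, 9.59 and 9.26 in SK-N-AS. BUB1B, a spindle checkpoint kinase, read 13.19 and 13.58 against 9.68, 10.24 and 9.70, and KIF20A and AURKB, which act in cytokinesis, were off in SK-N-AS and at least 5.81-fold and 2.77-fold lower. Several members varied among the SK-N-AS arrays. TOP2A, named after its values were seen, read 13.77 and 13.60 in SK-N-FI and 7.21, 10.79 and 10.11 in SK-N-AS. Array 25, the one that stood apart, was the lowest for it. Without SK-N-FI array 2 the replication gene higher in SK-N-AS was not called. Without array 25 the counts were 18 of 20 mitosis genes and 18 of 19 replication genes, with medians of -2.63 and -1.57. Of 14 D cyclin, CDK and inhibitor genes, CCND1 was on in both lines and differed by -1.37, CCNE2 was off in SK-N-AS, and CDKN2A was off in SK-N-FI at 4.92 and 5.54 and read 8.01, 7.70 and 8.05 in SK-N-AS.

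Death receptor genes leaned to SK-N-AS, and BCL2 family genes depended on the scale. Of 9 death receptor genes, 7 were higher in SK-N-AS, against 0 in SK-N-FI (3 and 0 on all 3 scales), and the 7 were 4 without SK-N-FI array 1. CASP8, the initiator caspase often silenced in neuroblastoma, read 6.56 and 7.07 in SK-N-FI, above background on 1 of the 2 arrays, and 11.54, 11.17 and 11.26 in SK-N-AS, a difference of 4.51 (SE 0.24). The TRAIL receptor TNFRSF10B was off in SK-N-FI at 4.21 and 4.0 and read 11.63, 11.47 and 11.57, at least 26.8-fold higher. Of 14 BCL2 family genes, 6 were higher in SK-N-AS, against 1 in SK-N-FI, where 48.0% of all named probe sets were called. Only 2 and 1 of them held on all 3 scales. On the deposited scale the counts were 2 and 8, without SK-N-FI array 1 the 6 were 3, without SK-N-FI array 2 or SK-N-AS array 26 or 27 the 1 was 0, and the median of 0.59 was -0.96 on the deposited and -0.10 on the centred scale. BCL2 itself was off in SK-N-FI at 6.43 and 6.12 and read 9.02, 10.25 and 9.81, and BID, which CASP8 cleaves, differed by 2.70. Among multidrug transporters, ABCB1 was off in both lines (6.69 and 6.55 against 4.41, 4.61 and 4.49), and ABCC3 was off in SK-N-FI and at least 3.88-fold higher in SK-N-AS.

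Redox and lysosomal genes were higher in SK-N-AS. Of 14 NRF2 pathway genes, 12 were higher in SK-N-AS, against 0 in SK-N-FI (9 and 0 on all 3 scales). AKR1C1 was off in SK-N-FI at 3.97 and 4.15 and read 14.29, 13.88 and 14.03, and AKR1C2 read 3.97 and 3.27 against 11.21, 10.75 and 11.10, though the AKR1C genes are close copies that may share signal. NQO1, a quinone reductase, read 8.74 and 8.45 against 14.18, 13.82 and 14.08. These 3 genes did not overlap between the lines, as was the case for 67.5% of all named probe sets. Of 13 lysosomal genes, 12 were higher in SK-N-AS, against 0 in SK-N-FI, of which 5 held on all 3 scales. Cathepsin S (CTSS) was off in SK-N-FI at 4.30 and 4.18 and read 12.27, 12.24 and 12.29, at least 43.9-fold higher, and cathepsins D and L differed by 3.31 and 2.69. Metallothioneins, binders of zinc and copper, were higher in SK-N-AS for 8 of 9 and for 4 on all 3 scales, among them MT2A at 12.99 and 12.46 against 15.91, 15.94 and 15.87.

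Surface antigens studied as neuroblastoma targets were split. B4GALNT1, which makes the ganglioside GD2 and its relatives, read 8.57 and 8.82 in SK-N-FI and 5.16, 4.64 and 4.55 in SK-N-AS, where it was off, at least 2.12-fold lower. NCAM1 read 14.96 and 15.12 against 11.19, 11.55 and 11.59 and was on in both. CD24, a small adhesion glycoprotein, ran the other way, off in SK-N-FI and at least 25.4-fold higher in SK-N-AS. Over the whole list of 12 genes, 4 were higher in each line, where all named probe sets gave 24.7% in SK-N-AS and 23.3% in SK-N-FI. On all 3 scales 2 were higher in SK-N-AS and 4 in SK-N-FI. Of 13 retinoic acid genes, 5 were higher in SK-N-AS and 1 was lower there (4 and 1 on all 3 scales), and the 5 were 3 without SK-N-FI array 1. CRABP2, a carrier of retinoic acid, was off in SK-N-FI at 4.73 and 4.84 and read 12.52, 12.02 and 11.90, and STRA6, the retinol importer and the member that ran the other way, read 12.76 and 12.30 in SK-N-FI against 8.44, 7.91 and 8.19. In the axon guidance list the semaphorin co-receptors differed in opposite directions. NRP2 read 11.15 and 12.13 in SK-N-FI and was off in SK-N-AS, at least 16.4-fold lower, and NRP1 read 9.93 and 9.54 against 12.70, 13.76 and 13.17.

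**Figure D4:**
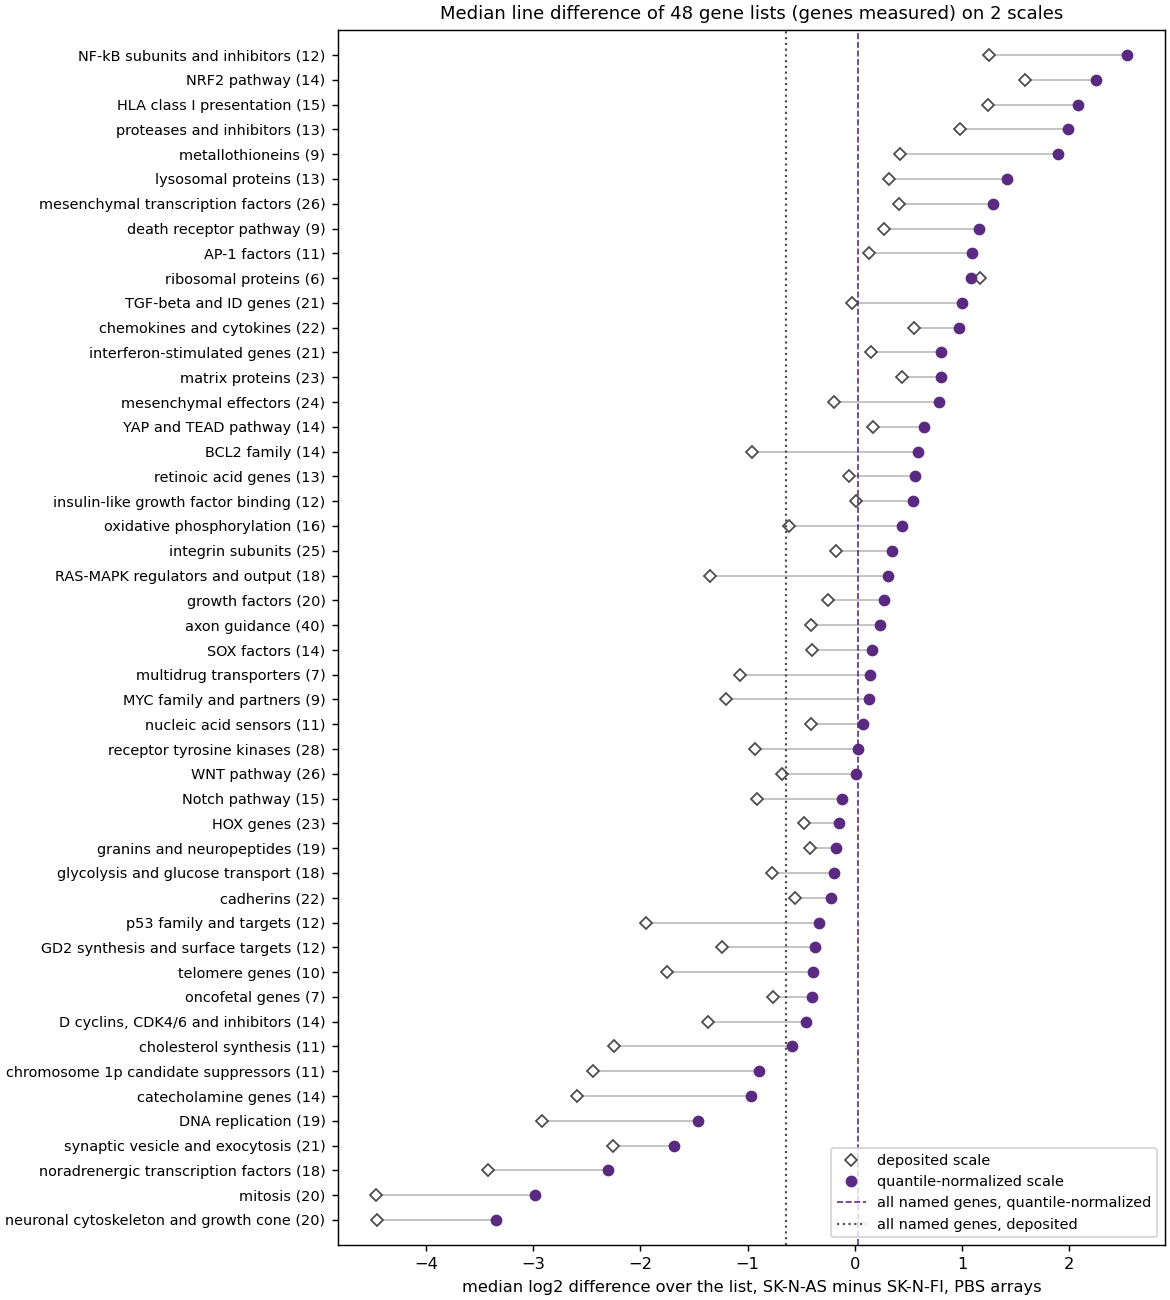
Median log2 difference between the untreated lines (positive when higher in SK-N-AS) for each of 48 gene lists with the number of genes measured, on the quantile-normalized scale (filled circles) and the deposited scale (open diamonds). Dashed and dotted lines mark the medians of all named genes on these scales, 0.034 and -0.65, and lists whose symbols lie on opposite sides of 0 change sign with the scale, as BCL2 family and RAS-MAPK genes do.

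Markers of other cell types were read on the same arrays. The summed signal of 7 neuroblastic markers lay at 14.93 to 15.01 in SK-N-FI and at 11.40 to 11.81 in SK-N-AS, with PHOX2A and DBH off in SK-N-AS, TH off in both lines, and HAND2, GATA3 and ISL1 on in both. The seventh, STMN2, was on in SK-N-FI and above background on some SK-N-AS arrays. The summed signal of 7 fibroblast markers lay at 14.19 to 15.41 in SK-N-AS and 12.04 to 12.12 in SK-N-FI. The test placed 5 of these 7 toward SK-N-AS and 1 toward SK-N-FI, while 3 of the 7 were on in both lines. On the deposited scale the split was 4 to 3, and on all 3 scales it was 4 to 1. In SK-N-AS the list included decorin (DCN) at 12.94, 13.48 and 13.47 and lumican (LUM) at a mean of 14.08 (n = 3), both above background on 1 of the 2 SK-N-FI arrays as well, whereas COL1A1 was off in both lines. The summed signal of 7 leukocyte markers lay at 12.66 to 12.92 in SK-N-AS and 7.55 to 7.72 in SK-N-FI, and 5 of the 7 (CD3E, CD14, LYZ, CD2 and ITGAM) were off in both lines. CD68, a lysosomal protein, read 5.95 and 5.92 in SK-N-FI and 12.85, 12.46 and 12.63 in SK-N-AS. CD68 alone thus made up most of the leukocyte sum in SK-N-AS. PTPRC read 4.52 and 4.17 against 6.44, 9.30 and 8.44, and was below background on SK-N-AS array 25. Endothelial and Schwann cell markers were off in both lines (8 of 8 and 5 of 5). Among these dim signals 2 endothelial markers passed as higher in SK-N-FI and 2 Schwann cell markers as higher in SK-N-AS. Of 8 epithelial markers, 6 were off in both lines and 3 passed as higher in SK-N-AS. Of 8 smooth muscle markers, 6 were off in both lines, ACTA2 and SMTN were on in both, and 3 passed as higher in SK-N-AS. Over all named probe sets 48.0% passed, and 24.7% did so as higher in SK-N-AS. The summed epithelial signal lay at 9.06 to 9.42 in SK-N-AS and 8.61 to 8.69 in SK-N-FI, and the smooth muscle one at 10.5 to 11.04 and 9.68 to 10.35. In bulk RNA, fewer cells of a type and less RNA per cell cannot be told apart, and the part of the fibroblast and leukocyte markers in the matrix and cytokine differences was not tested.

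The difference between the lines was uneven along the chromosomes. It was followed over 5217 autosomal genes on in both lines, in RefSeq gene order, where the median over all was 0.18. By chromosome it ran from -0.54 on chromosome 13 and -0.50 on chromosome 15 to 0.72 on chromosome 18 and 0.76 on chromosome 21. In runs of 50 neighbouring genes the medians had a 5th percentile of -0.67 and a 95th of 0.86 over 4139 overlapping runs. The lowest run lay on the long arm of chromosome 11, from CHORDC1 to NCAPD3, with a median of -1.30 and 80.0% of its genes lower in SK-N-AS (32 called higher in SK-N-FI, 5 in SK-N-AS). Further low runs lay on chromosome 15 from BUB1B to MAPK6 (-1.14), on chromosome 13 (-1.11) and on the short arm of chromosome 3 from TADA3 to SACM1L (-1.02). The highest lay on chromosome 14 from PGF to ATP5MJ (1.45, with 38 of the 50 genes called higher in SK-N-AS, against 2 in SK-N-FI), at the end of the long arm of chromosome 1 from CNIH3 to ZNF496 (1.39), nearer its centromere from S100A16 to MRPL24 (1.34), and on chromosome 5 from RNF145 to MAPK9 (1.31). On the deposited scale the median over all was -1.29, and the chromosome 11 and chromosome 14 runs stood at -2.59 and -0.059, apart from it in the same directions. Loss of parts of chromosomes 1, 3 and 11 is a recurrent finding in neuroblastoma tumours, but DNA was not measured here. Over 584 chromosome 1 genes on in both lines the median was 0.47, with 43.5% passing toward SK-N-AS and 14.6% toward SK-N-FI. The arms were not separated in this median. Of 11 candidate suppressor genes of the short arm, 10 were higher in SK-N-FI, against 1 in SK-N-AS (9 and 1 on all 3 scales). Only 3 of the 11 were 2-fold or more higher and on in SK-N-FI, and 4 were off in both lines. Among the 10 were the kinesin KIF1B (9.27 and 9.11 against 5.96, 7.52 and 6.47) and the zinc finger factor CASZ1, both off in SK-N-AS, and UBE4B (-1.13). Without SK-N-FI array 1 only 4 of the 11 were called higher in SK-N-FI, and without array 2, 7 (and 0 in SK-N-AS). Runs are chosen as extremes, and their medians are descriptions with no test.

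**Figure D5:**
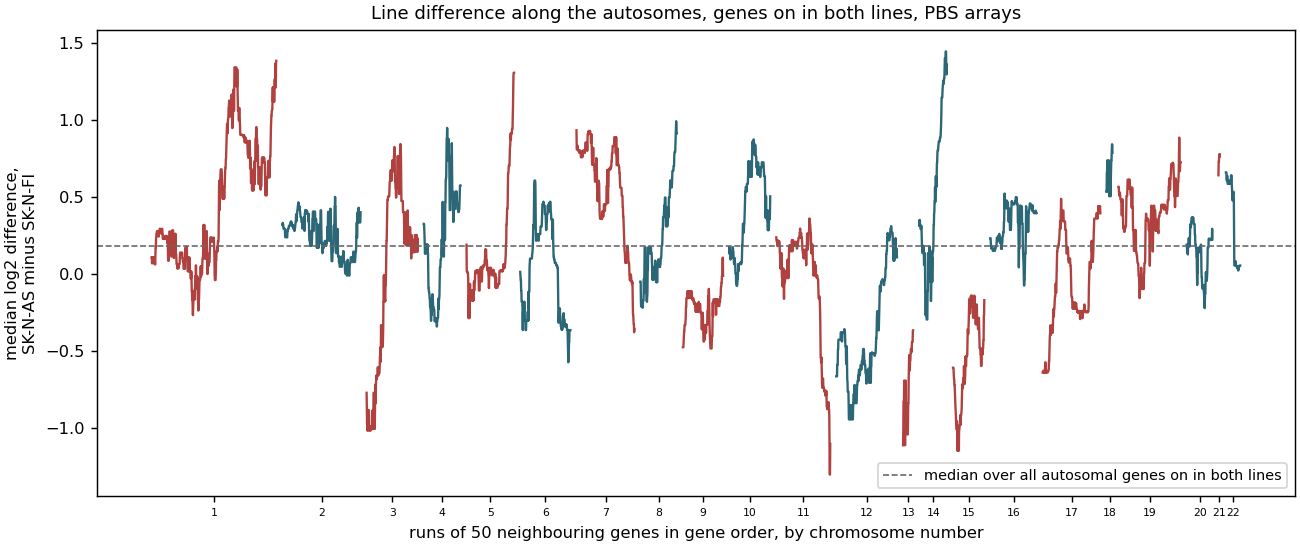
Median log2 difference between the untreated lines (positive when higher in SK-N-AS) in runs of 50 neighbouring genes on in both lines, in gene order along each autosome (alternating colours), with the median over all such genes, 0.18, dashed. The runs fall lowest at the end of chromosome 11, at -1.30, and rise highest at the end of chromosome 14, at 1.45.

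The 5 arrays of treated cells, which entered the comparisons above only through the normalization and the shared estimate of spread, gave a second reading of the line difference. Over 17705 named probe sets the untreated and treated line differences correlated at 0.973, as a description across genes, which are not independent replicates. Of the 8495 probe sets called in untreated cells, 99.5% had the same sign in treated cells and 82.6% also passed there, against 45.4% of all named probe sets called between the treated lines. All 4205 of the stricter count had the same sign, and 95.2% passed. IL1B read 3.57 and 3.31 on the treated SK-N-FI arrays and 16.67, 16.60 and 16.65 on the treated SK-N-AS arrays, close to its untreated values. The treated arrays share each line's processing, so they do not separate the line from it.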

How the data were processed

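Trizol-extracted total RNA was biotin-labelled for Affymetrix whole-transcript arrays, per the labels' protocols. The series table deposited by the authors holds 1 log2 signal per probe set and array. RMA (background correction, normalization and probe summary) and Transcriptome Analysis Console version 4.0.1.36 are named per the submitters' processing notes. The genome build was not given in the sources used here. Of 24351 probe sets, 20893 gene probe sets (identifiers starting with TC) were tested, 17705 with a gene symbol from the platform annotation, updated through RefSeq. For 17 symbols with over 1 probe set, the brightest was used. The log2 values were quantile-normalized over all 10 arrays. Differences were tested with limma (version 3.58.1, R 4.3.3; linear model with moderated variance) on 4 groups (line by treatment), so that the spread came from all 10 arrays, with Benjamini-Hochberg adjustment over all gene probe sets and a threshold of 0.05. The treated lines were compared in a fit of the 5 treated arrays. The fit was tested on simulated data.

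Genes named were the 15 largest differences in each direction among called, non-overlapping autosomal genes on in the higher line, 2 to 4 members of each list with the smallest p, and a fixed set of identity, target and driver genes; others are marked as named after their values were seen, save for marker genes, ends of chromosome runs and members shown for exceptions. The members and the lists were chosen with earlier results of these data known. Alternatives were the deposited and median-centred scales, the 5 untreated arrays alone, trended robust moderation, array weights, a filter on dim probe sets, stricter thresholds, a block for SK-N-FI array numbers, other background percentiles, runs of 100 genes, and leaving out each array. Promoters and gene order came from RefSeq (GRCh38.p14). SK-N-FI arrays with the same number in untreated and treated cells deviated from their group means with a correlation of -0.138, and SK-N-AS numbers do not recur, so no pairing was used.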

Additional observations from a re-analysis of the deposited data

How the results depend on the processing

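The count of gene probe sets called between the untreated lines, 9783 of 20893 (5042 higher in SK-N-AS, 4741 in SK-N-FI), was 12403 on the deposited scale (2443 and 9960) and 13222 after median centring (7459 and 5763), so its split by direction depended on the scale. It was 5954 (2762 and 3192) over probe sets on in at least 1 line, 4704 when a 2-fold difference and a signal above background were required, and 6335 for calls shared by all 3 scales. Leaving out 1 array gave 7003 to 9491. Between treated lines 9243 were called, 12065 on the deposited scale (2286 and 9779) and 12704 after centring (7064 and 5640). A replicate block for SK-N-FI array numbers gave 9183 calls; the untreated groups of different lines share no array numbers, so the block cannot pair them. Crossing the SK-N-FI numbers gave 9353.

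Genes on in only 1 line numbered 1733 (435 in SK-N-AS, 1298 in SK-N-FI), 706 (136 and 570) at the 99th percentile of negative controls, and 1851 to 2037 when an SK-N-AS array was left out and 1870 to 1974 when an SK-N-FI array was. Of 48 lists, 30 had a median above 0, 15 on the deposited scale and 27 to 30 with 1 array left out. The lowest and highest chromosome runs were -0.75 and 1.10 in runs of 100 genes, and -1.30 and 1.57 in treated cells.

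Of 216 named genes, 5 changed direction on the deposited scale: ITGAV (-0.50), HMGA1 (-0.19), MCL1 (-0.051), SOX4 (-0.32) and SDHC (-0.20). After median centring 4 did: TERT (0.15), LDHA (0.33), LDHB (0.52) and ATP5F1B (0.25). HAND2, never called after quantile normalization, ranged from -0.52 to 0.21 with 1 array left out, turning to 0.21 without SK-N-FI array 2 and 0.025 without SK-N-AS array 26. The cause was not tested in any of these. Of the same genes, 12 were no longer called on the deposited scale, VIM, TWIST1 and JUNB among them. Signals near the background limit, and the 2 SK-N-FI arrays, limit what could be detected.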
